A study of Mus musculus with 8 samples.

Results

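The genes described are the nuclear-encoded components of the mitochondrial respiratory chain and of the ATP synthase. They were chosen by gene symbol alone: every probe whose platform symbol starts with Nduf, Uqcr, Atp5 or with Cox4 to Cox8, or is Sdha, Sdhb, Sdhc, Sdhd, Cycs or Cyct. The rule found 89 of the 19057 genes named on the array, measured by 139 of its 45281 probes. For a gene with several probes, the probe with the highest mean signal stands for it. By name, 36 genes belong to complex I, 8 are complex I assembly factors, 4 encode complex II, 7 complex III, 2 cytochrome c, 16 complex IV and 16 the ATP synthase. Ndufs5-ps is a pseudogene by its annotated name, and Ndufa4, grouped by name under complex I, is now regarded as a complex IV subunit. Of the 89 genes, 86 are autosomal and 3 lie on the X chromosome.

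The study measured total RNA of mouse round spermatids, the haploid cells that follow meiosis, on Illumina bead arrays. It asked how lowering the X-linked Slx and Slxl1 genes or the related Y-linked Sly genes alters spermatid gene expression. The mice were 8 weeks old in every group. The 4 wildtype arrays carry no transgene, the 2 shSLX arrays carry an RNA interference construct labelled shSLX, and the 2 shSLY arrays carry one labelled shSLY. The labels give neither the promoter that drives the constructs nor the number of founder lines. Nothing in them ties the samples to separate animals, so every p-value reflects only how far these arrays differ from each other, which may be technical. Array labels place wildtype 2 on slide 1, wildtype 1 and both shSLY arrays on slide 2, and wildtype 3 and 4 and both shSLX arrays on slide 3.

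Identity is disputed within the deposit. In the non-normalized table, 2 of the 8 columns rank the probes exactly as the same sample does in the series matrix, 4 rank them as another sample does and 2 have no match. There, wildtype 3 and 4 as headed equal shSLY 1 and 2 of the series matrix in rank, and shSLY as headed equals shSLX. Groups below follow the series matrix by sample accession, and slides follow the array label of that sample. Those labels are the headers of the non-normalized table, so slide placement is disputed along with the groups. Which naming is right could not be settled. The check of the targeted genes also goes against one label. Sly, measured by 1 probe, read 9.45 and 8.93 on the log2 scale in the libraries labelled shSLX, against 10.04 to 10.52 in wildtype, and fell by 0.86 ± 0.17 (SE) with a limma adjusted p of 0.0377. In the libraries labelled shSLY it read 10.56 and 10.26, a log2 fold change of −0.11 ± 0.21 (adjusted p = 0.959). No probe is named Slx or Slxl1. All 11 round spermatid markers on the array passed the detection filter and none was called changed.

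The respiratory chain passes electrons from NADH through complex I, or from succinate through complex II, to complex III, then by cytochrome c to complex IV, which reduces oxygen. The proton gradient that complexes I, III and IV build drives the ATP synthase. Male germ cells are known for replacing several subunits with testis forms: Cyct takes the place of somatic cytochrome c, and Cox6b2, Cox7b2 and Cox8c are testis-enriched forms of complex IV subunits.

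The promoters of both isoform pairs that mark the gene set, cytochrome c and COX6B, are shown because each pair holds a somatic and a testis form. Each is the RefSeq window of 300 bases in GRCm38.p6, from 250 before to 50 after the annotated start, all on the minus strand and printed 5′ to 3′. They lie at chr6:50566520-50566819 (Cycs), chr2:76360404-76360703 (Cyct), chr7:30626065-30626364 (Cox6b1) and chr7:4753045-4753344 (Cox6b2). Capitals mark a match to a searched motif on either strand.
Cycs: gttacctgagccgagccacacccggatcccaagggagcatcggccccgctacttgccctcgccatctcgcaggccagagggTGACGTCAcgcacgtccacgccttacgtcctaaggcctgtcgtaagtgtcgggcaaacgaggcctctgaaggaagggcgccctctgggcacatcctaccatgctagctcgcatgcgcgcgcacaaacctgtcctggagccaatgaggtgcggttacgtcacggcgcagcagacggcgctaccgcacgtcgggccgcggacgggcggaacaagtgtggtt
Cyct: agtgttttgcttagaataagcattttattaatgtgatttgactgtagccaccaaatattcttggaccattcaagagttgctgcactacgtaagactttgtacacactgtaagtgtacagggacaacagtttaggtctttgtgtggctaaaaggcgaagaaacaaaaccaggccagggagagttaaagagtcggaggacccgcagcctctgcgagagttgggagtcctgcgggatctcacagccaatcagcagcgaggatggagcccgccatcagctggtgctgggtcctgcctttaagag
Cox6b1: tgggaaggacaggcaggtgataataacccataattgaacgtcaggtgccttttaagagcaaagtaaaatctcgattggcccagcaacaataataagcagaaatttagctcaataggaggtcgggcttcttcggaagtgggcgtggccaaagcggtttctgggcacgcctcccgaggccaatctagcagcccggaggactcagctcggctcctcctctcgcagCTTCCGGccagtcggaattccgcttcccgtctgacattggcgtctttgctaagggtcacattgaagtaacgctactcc
Cox6b2: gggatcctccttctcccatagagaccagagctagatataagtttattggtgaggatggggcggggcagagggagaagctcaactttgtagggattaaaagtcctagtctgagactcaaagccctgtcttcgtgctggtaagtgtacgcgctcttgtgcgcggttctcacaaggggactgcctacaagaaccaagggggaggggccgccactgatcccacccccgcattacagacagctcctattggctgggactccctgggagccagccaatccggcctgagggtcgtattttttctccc
Cycs held 1 match to the cAMP response element TGACGTCA, and Cox6b1 held 1 match to the ETS core CCGGAAG, read on the opposite strand. The windows of Cyct and Cox6b2, the testis forms, held none of the letters searched. A promoter was found for 74 of the 89 genes, some of them not tested on the array. The NRF1 letters (GCGCA, any base, then GCGC) occurred for 18 of the 74 genes (24.3%). The share was 11.2% of the 7690 genes tested on the array that had a promoter and 5.19% of all 27025 RefSeq genes. ETS letters occurred for 24.3% of the 74 genes, against 19.6% of tested genes. The YY1 letters AAGATGGCG occurred for 8 genes (10.8%, against 3.43% of tested genes), the cAMP response element for 5 (6.76% against 3.8%) and TATAAA for 8 (10.8% against 9.31%). Both strands were searched. The ETS letters end in the AAG that opens the YY1 letters, so 1 stretch could match both; the windows of Atp5j and Ndufaf8 held both motifs, but in separate stretches. The matches are descriptions of sequence and not of binding.

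Most of the genes were readily detected in these cells. A probe counted as detected where its deposited detection p-value was under 0.01, and a probe was tested if at least 2 of the 8 detection columns met that. By that rule 79 of the 89 genes were tested, and 75 of them were detected in all 8 columns. The tested genes comprised 34 of 36 in complex I, 7 of 8 assembly factors, 3 of 4 in complex II, all 7 in complex III, 1 of 2 cytochromes c, 12 of 16 in complex IV and 15 of 16 in the ATP synthase. Mean wildtype log2 signal ran from 6.35 to 14.40. Signals of different probes are not comparable as amounts of RNA, so levels are compared only between arrays of the same probe.

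The 10 untested genes were Cyct, Cox4i2, Cox6a2, Cox7b, Cox8b, Ndufaf6, Ndufb11, Ndufs1, Sdha and Atp5k. Each was detected in 0 of 8 columns except Atp5k, in 1. Ndufs1, the largest iron-sulfur subunit of complex I, and Sdha, the flavoprotein of complex II, are core subunits with 1 probe each, whose log2 signals were 5.84 to 6.02 and 5.86 to 5.98. Other subunits of both complexes were detected, and no level can be given for these core subunits.

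The markers of the gene set divided. Cyct, the testis cytochrome c, was not detected: its only probe read 5.95, 5.83, 5.87 and 5.98 in wildtype 1 to 4, 5.70 and 5.71 in shSLX and 5.83 and 5.92 in shSLY. Cox6b2, the testis form of COX6B, was detected in all 8 columns by both of its probes. The brighter one read 11.85, 12.03, 11.59 and 11.60 in wildtype, 11.68 and 11.53 in shSLX and 11.71 and 11.83 in shSLY. On this probe all knockdown values except that of shSLX 2 lay within the wildtype range. In the shSLX arrays the Cox6b2 log2 fold change was 0.016 ± 0.105 (SE; limma adjusted p = 0.953), with a 95% interval from −0.22 to 0.26. In the shSLY arrays it was −0.082 ± 0.129 (adjusted p = 0.946), with an interval from −0.38 to 0.21. The second probe read 10.93, 10.85, 10.21 and 10.14 in wildtype, 10.065 and 10.051 in shSLX and 10.81 and 11.19 in shSLY. Both shSLX values lay below all wildtype values there, and shSLY 2 lay above them. Its fold changes had the opposite sign, at −0.11 ± 0.13 (adjusted p = 0.695) in shSLX and 0.073 ± 0.163 (adjusted p = 0.969) in shSLY.

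The other isoform sets show which forms the probes could follow. Cox8c, the testis form of COX8, read 14.35 to 14.45 in wildtype, 14.41 and 14.32 in shSLX and 14.09 and 14.26 in shSLY. Both shSLY values lay below all 4 wildtype values, but the log2 fold change of −0.20 ± 0.13 (SE) had an adjusted p of 0.779. Cox8b, the form of heart and skeletal muscle, was not detected, and Cox8a was named on no probe used here.

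Cox7b2, the testis form of COX7B, was detected in 7 columns. It read 7.36, 7.48, 7.08 and 6.97 in wildtype, 6.97 and 6.48 in shSLX and 6.97 and 7.09 in shSLY. The low value of shSLX 2 set the largest part of its shSLX log2 fold change of −0.30 ± 0.16 (SE; limma adjusted p = 0.36). Without shSLX 1 that fold change was −0.55. That fit leaves 1 shSLX array, the low one, which is assumed to vary like the other groups, so it is no separate evidence of a fall. In shSLY the Cox7b2 fold change was −0.33 ± 0.19 (adjusted p = 0.731). The somatic form Cox7b, X-linked, was not detected.

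Of the COX6A forms, the ubiquitous Cox6a1 was detected in all columns and the muscle form Cox6a2 in none. Cox6a1 read 12.09, 12.21, 11.61 and 11.66 in wildtype, 11.71 and 11.67 in shSLX and 11.95 and 12.07 in shSLY. Its 8 values fell by labelled slide. The 4 arrays of slide 3 lay between 11.61 and 11.71 and the other 4 arrays between 11.95 and 12.21. Its log2 fold changes were 0.054 ± 0.10 (SE; adjusted p = 0.812) in shSLX and −0.084 ± 0.123 (adjusted p = 0.940) in shSLY.

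Of the COX4 forms, Cox4i1 was detected and Cox4i2, a form known from lung and hypoxia, was not. Cox4i1 log2 fold changes were 0.13 ± 0.11 (SE; limma adjusted p = 0.561) in shSLX and −0.091 ± 0.130 (adjusted p = 0.939) in shSLY. The muscle form Cox7a1 was detected in only 2 columns. Cox7a2, the form of most tissues, read 9.84 to 10.03 in wildtype, 10.19 and 9.83 in shSLX and 9.94 and 9.81 in shSLY, with adjusted p of 0.907 and 0.989. Cox7a2l, known for its part in respiratory supercomplexes, read 10.14 to 10.49 in wildtype, 10.60 and 10.28 in shSLX and 10.47 and 10.49 in shSLY. Its shSLX log2 fold change of 0.29 ± 0.12 (adjusted p = 0.273) became 0.45 without shSLX 2. That fit again has 1 shSLX array, whose spread is taken from the other groups.

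The somatic cytochrome c gene Cycs was detected in all columns by 1 of its 3 probes. It read 7.27, 7.50, 7.13 and 7.47 in wildtype, 7.64 and 7.16 in shSLX and 7.29 and 7.54 in shSLY, so its groups overlapped. Of the genes for the ATP synthase c subunit, which forms the rotor ring, Atp5g2 and Atp5g3 were detected and Atp5g1 was named on no probe used here. Atp5g3 read 11.30 to 11.50 in wildtype, 11.50 and 11.37 in shSLX and 11.15 and 11.43 in shSLY. Neither gene passed the test in either comparison, with adjusted p from 0.398 to 0.989.

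**Figure D1:**
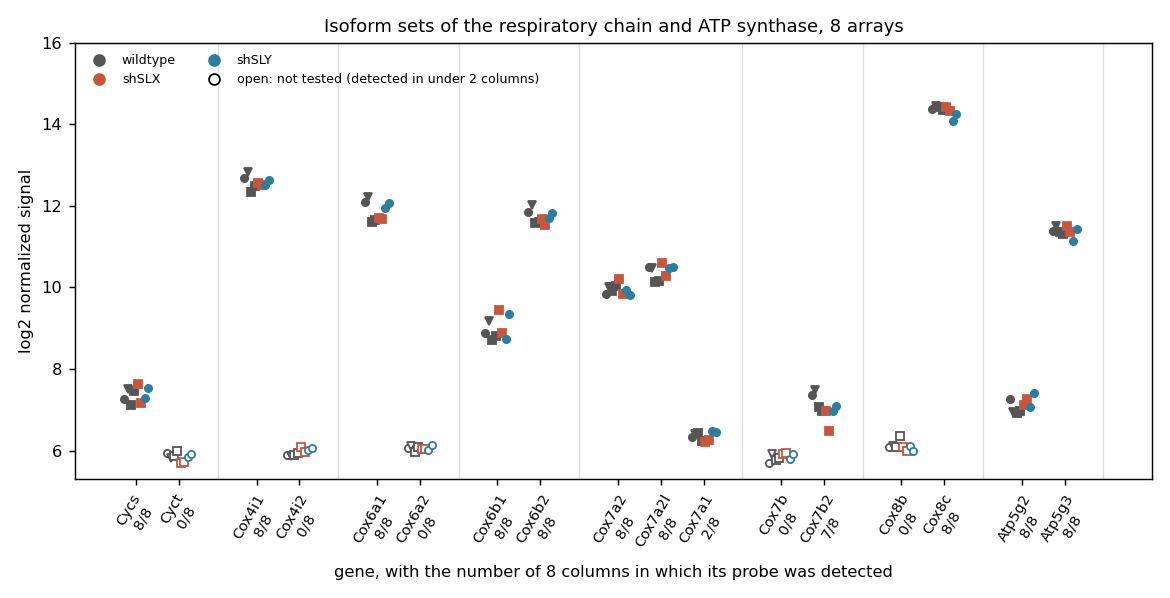
Normalized log2 signal (y axis) of the tissue isoform sets on each of the 8 arrays, with the number of columns in which the probe was detected under each gene. Colours are groups, and triangles, circles and squares are slides 1, 2 and 3; open symbols are genes that were not tested, among them Cyct at 5.70 to 5.98. Levels of different genes are not comparable, and the spread to compare is that between arrays of 1 gene, such as Cox6a1, whose squares lie at 11.61 to 11.71 below the other arrays.

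The first comparison asked which of these genes differed in the libraries labelled shSLX. In that comparison 0 of the 79 tested genes and 0 of their 106 tested probes passed the threshold, a limma adjusted p under 0.05. Over all tested, 2.41% of probes and 2.8% of genes passed. At an unadjusted p under 0.05 there were 7 genes (8.86%, against 18.2% of all 9451 genes tested). Log2 fold changes ran from −0.35 to 0.52 with a median of 0.039, beside −0.0085 over all genes, and 31 lay below 0 and 48 above. That median was 0.0059 without the slide term, −0.032 without shSLX 1 and 0.109 without shSLX 2, so its sign was not settled. The 95% interval lay within 1 log2 unit (a 2-fold change) of 0 for 78 of the 79 genes and within 0.5 for 62. Because slide is in the model, the shSLX arrays were in effect compared with wildtype 3 and 4 on the same slide. With arrays named as in the non-normalized headers, 6 of the 79 genes passed, where 16.2% of all probes did. Leaving out either shSLX array leaves 1 in that group, with its spread taken from the other groups. Without shSLX 1 the Cox7b2 fold change was −0.55. Without shSLX 2 the values were 0.45 for Cox7a2l, 0.37 for Atp5h and 0.43 for Atp5pb.

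None of the complex I genes passed in shSLX, and 23 of 34 lay above 0, with a median log2 fold change of 0.062. The lowest adjusted p among all 79 genes was that of Ndufs8, an iron-sulfur subunit that carries electrons toward ubiquinone. Ndufs8 read 9.46, 9.45, 9.22 and 9.19 in wildtype and 9.55 and 9.65 in shSLX. Both shSLX values lay above all 4 wildtype values. The log2 fold change was 0.39 ± 0.10 (SE; limma adjusted p = 0.107), with an interval from 0.16 to 0.63. In shSLY, Ndufs8 read 9.32 and 9.47, which overlapped wildtype.

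Ndufs4, a subunit needed for a stable and active complex I, had the lowest fold change in shSLX. It read 12.24, 12.16, 12.36 and 12.65 in wildtype, 12.08 and 12.23 in shSLX and 11.98 and 12.00 in shSLY. The shSLY values lay below all wildtype values and the shSLX values overlapped them. Its log2 fold changes were −0.35 ± 0.12 (SE; limma adjusted p = 0.196) in shSLX and −0.25 ± 0.15 (adjusted p = 0.747) in shSLY. The other 3 tested probes of Ndufs4 gave −0.046, −0.13 and −0.18 in shSLX and −0.18 to −0.23 in shSLY, the same sign in every case.

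The highest fold changes in shSLX, those of Ndufb10 and Ndufa4, came from the genes with the widest ranges over the 8 arrays. Ndufb10, an accessory subunit of the complex I membrane arm, read 8.48, 8.67, 8.77 and 7.89 in wildtype and 9.07 and 8.63 in shSLX, a log2 fold change of 0.52 ± 0.26 (SE; adjusted p = 0.340). Its second probe gave −0.34 ± 0.49 (adjusted p = 0.757) and ranged from 6.43 to 9.01 across the 8 arrays. Wildtype 4 was the lowest array on the first probe and the highest on the second, so Ndufb10 has no settled direction. Ndufa4 read 8.38, 8.32, 7.65 and 7.89 in wildtype, 8.41 and 7.99 in shSLX and 8.14 and 8.79 in shSLY. Its groups overlapped, and the shSLX fold change of 0.43 ± 0.22 had an adjusted p of 0.352. Ndufa3, another accessory subunit, gave 0.34 ± 0.11 (adjusted p = 0.174) in shSLX, and its second probe gave 0.35.

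In complex IV, Cox7b2 and Cox6b1 marked the ends of the shSLX range, and Cox5a lay next to Cox7b2. Cox5a, a matrix-side subunit, read 13.35, 13.42, 13.54 and 13.32 in wildtype and 13.18 and 13.10 in shSLX, with both shSLX values below all wildtype values. The log2 fold change was −0.30 ± 0.11 (SE; limma adjusted p = 0.226). Cox6b1, the somatic form beside Cox6b2, read 8.89, 9.17, 8.72 and 8.80 in wildtype, 9.45 and 8.89 in shSLX and 8.74 and 9.35 in shSLY. One array of each knockdown was high and the other was within the wildtype range. Its second probe showed the same arrays high, at 9.04 in shSLX 1 and 8.79 in shSLY 2. The fold change was 0.41 ± 0.22 (adjusted p = 0.374) in shSLX and 0.15 ± 0.27 (adjusted p = 0.958) in shSLY.

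The remaining complexes gave narrower ranges in shSLX. Complex III log2 fold changes ran from −0.17 to 0.20, complex II from −0.14 to 0.045 and the ATP synthase from −0.17 to 0.25. Both shSLX arrays lay above all 4 wildtype arrays for 7 genes (8.86%, against 12.6% of all genes), and below them for 8 genes (10.1%, against 13.2%).

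In the libraries labelled shSLY the fold changes leaned downward without any gene passing the test. Again 0 of 79 genes and 0 of 106 probes passed, where 0.712% of all probes and 0.656% of all genes did. At an unadjusted p under 0.05 there were 3 genes (3.8%, against 9.69% of all genes). Log2 fold changes ran from −0.44 to 0.31 with a median of −0.091, beside −0.012 over all genes. Of the 79 genes 56 lay below 0 (70.9%, against 52.8% of all genes). The median was −0.028 without the slide term and −0.032 without shSLY 1. The 95% interval lay within 1 log2 unit of 0 for 78 genes and within 0.5 for 58. With slide in the model, the shSLY arrays were in effect compared with wildtype 1 alone.

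Both shSLY arrays lay below all 4 wildtype arrays for 23 genes (29.1%, against 19.6% of all genes) and above them for 3 (3.8%, against 16.7%). The 23 were 11 of 34 complex I genes, 3 of 7 assembly factors, 3 of 7 complex III genes, 2 of 12 complex IV genes and 4 of 15 ATP synthase genes. The complex I genes included Ndufv1, Ndufv2 and Ndufv3, all of the NADH-binding module. The ATP synthase genes included Atp5b and Atp5c1, which encode the catalytic beta and central gamma subunits. The 3 genes above were the complex I assembly factor Ndufaf2, Sdhc and Cox7a1. Cox7a1 was detected in only 2 columns and was highest on the shSLY arrays (6.48 and 6.46, against at most 6.43 elsewhere), so its place in this count may follow from the detection filter.

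Ndufv3, a small subunit of the NADH-binding module, had the lowest shSLY fold change. It read 10.57, 10.65, 10.50 and 10.53 in wildtype, 10.77 and 10.72 in shSLX and 10.02 and 10.25 in shSLY. On this probe the 3 groups did not overlap. The log2 fold change was −0.44 ± 0.14 (SE; limma adjusted p = 0.280), with an interval from −0.75 to −0.13. Its second tested probe read 9.31 to 9.72 in wildtype and 9.14 on both shSLY arrays, a fold change of −0.56 ± 0.22 (adjusted p = 0.468). There shSLX read 10.18 and 9.68, and the second of these lay within the wildtype range.

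Ndufs7, the iron-sulfur subunit next to the ubiquinone site, followed in order. It read 10.23, 10.30, 10.16 and 10.24 in wildtype, 10.20 and 10.23 in shSLX and 9.87 and 9.86 in shSLY. Both shSLY values lay well below the narrow range of the other 6 arrays. The log2 fold change was −0.36 ± 0.12 (SE; limma adjusted p = 0.317). Without the slide term, which compares the shSLY arrays with all 4 wildtype arrays, Ndufv3 (−0.43, adjusted p = 0.0430) and Ndufs7 (−0.36, adjusted p = 0.0468) passed, where 4.02% of all genes did.

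Sdhc, a membrane anchor of complex II, was the highest gene in shSLY. It read 8.31, 8.45, 8.40 and 8.42 in wildtype, 8.18 and 8.35 in shSLX and 8.66 and 8.57 in shSLY. The log2 fold change was 0.31 ± 0.13 (SE; limma adjusted p = 0.518). The other high values were 0.29 ± 0.32 for Ndufb10 and 0.16 ± 0.16 for the assembly factor Ndufaf3, with adjusted p of 0.909 and 0.903. The second Ndufb10 probe had the opposite sign in shSLY, at −1.21 ± 0.60 (adjusted p = 0.634).

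**Figure D2:**
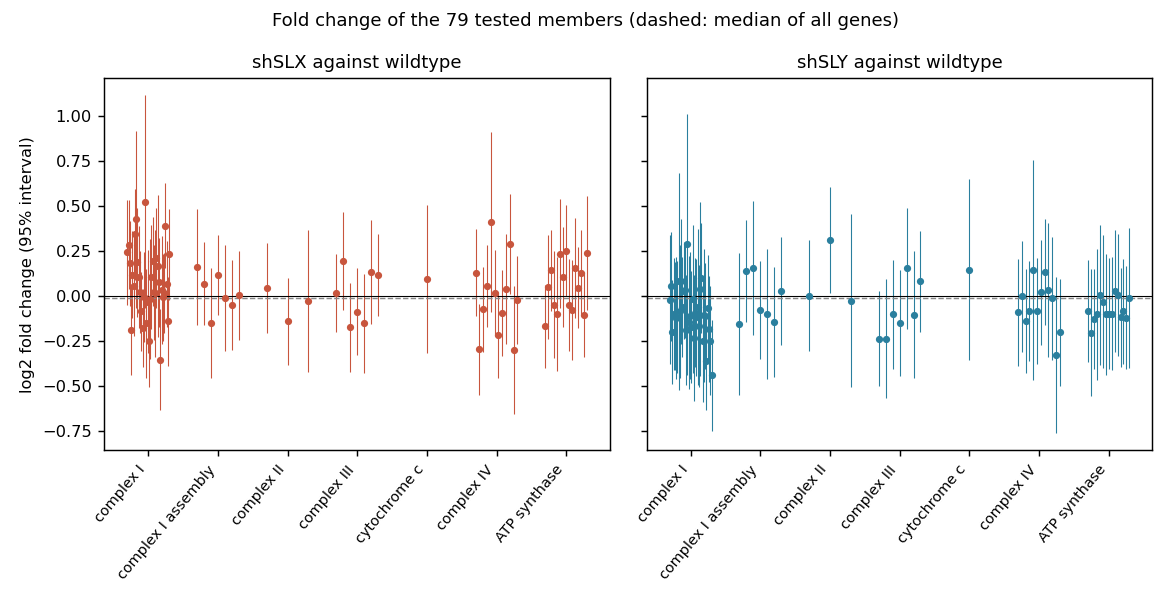
Log2 fold change with its 95% interval (y axis) for each of the 79 tested genes, grouped by complex along the x axis, in shSLX (left) and shSLY (right) against wildtype; the dashed line is the median of all genes tested. No gene passed the threshold; the values run from −0.35 to 0.52 in shSLX and from −0.44 to 0.31 in shSLY, where 56 of the 79 lie below 0.

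The difference between both knockdown effects was fitted as its own contrast, the shSLX effect minus the shSLY effect. Again 0 of 79 genes passed, where 1.8% of all probes and 1.94% of all genes did, and 7 genes had an unadjusted p under 0.05 (8.86%, against 14.7% of all genes). The log2 differences ran from −0.45 to 0.67 with a median of 0.11, beside 0.0049 over all genes, and 22 lay below 0 (27.8%, against 49.4% of all genes). This contrast has wide intervals: they lay within 1 log2 unit of 0 for 75 genes and within 0.5 for only 22. The median rested on the slide term and was −0.0035 without it. It was 0.194 without shSLX 2 and 0.022 without shSLX 1.

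Ndufv3 gave the largest difference, 0.67 ± 0.18 (SE; limma adjusted p = 0.114), with an interval from 0.27 to 1.07. Its second probe gave 0.98 ± 0.28 (adjusted p = 0.149). Ndufv3 passed the threshold in this contrast without the slide term (0.61, adjusted p = 0.00874). It also passed with slide as a random block (0.64, adjusted p = 0.0178, where 6.59% of all genes passed). Without shSLX 2 its difference was 0.70, with shSLX 1 as the only shSLX array and its spread taken from the other groups. Leaving out the slide term called 7 genes, all higher, where 15.7% of all genes were called. With arrays named as in the non-normalized headers, 0 of 79 genes passed. Ndufa3 and Ndufs8 followed, at 0.46 ± 0.18 (adjusted p = 0.292) and 0.46 ± 0.16 (adjusted p = 0.259).

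The lowest differences were those of Sdhc, Uqcrfs1 and Ndufaf3. Sdhc gave −0.45 ± 0.17 (SE; limma adjusted p = 0.272). Uqcrfs1, the Rieske iron-sulfur protein of complex III, read 6.67, 6.61, 7.26 and 7.0 in wildtype, 7.06 and 6.89 in shSLX and 6.82 on both shSLY arrays. Wildtype 3 was its highest array, and the difference was −0.31 ± 0.19 (adjusted p = 0.540).

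**Figure D3:**
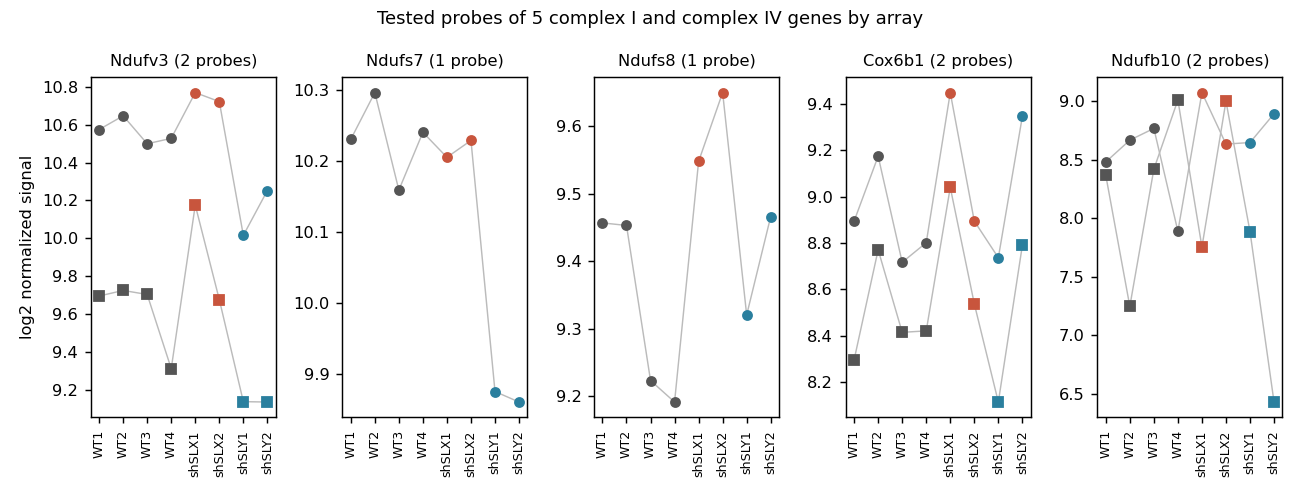
Normalized log2 signal (y axis, its own scale in each panel) of every tested probe of 5 genes on the 8 arrays, coloured by group; circles are the probe that stands for the gene and squares its second probe. Both Ndufv3 probes are lowest on the shSLY arrays, Ndufs7 is lower on both shSLY arrays (9.87 and 9.86), both Cox6b1 probes are high on shSLX 1 and shSLY 2, and the Ndufb10 probes differ in which arrays are high.

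Different probes of a gene differed by amounts near the size of the fold changes themselves. Of the 23 genes with over 1 tested probe, all probes had the same sign in 14 for shSLX and in 17 for shSLY. The median gap between the highest and lowest probe was 0.12 and 0.079 log2 units. The median absolute log2 fold change of the tested genes was 0.12 in shSLX and 0.10 in shSLY. In either comparison Ndufb10 was the only gene whose probes differed by over 0.5.

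The X-linked genes of the set were Ndufa1, Ndufb11 and Cox7b, and only Ndufa1 was detected. Ndufa1, an accessory subunit needed for complex I assembly, read 9.74, 9.77, 9.20 and 9.50 in wildtype, 9.69 and 9.50 in shSLX and 9.68 and 9.75 in shSLY. In shSLY its log2 fold change was −0.019 ± 0.157 (SE; limma adjusted p = 0.991), with an interval from −0.38 to 0.34. The median over the 263 X-linked genes tested was 0.43 in that comparison, outside this interval, and 12 of them had a lower fold change than Ndufa1. With slide in the model this value in effect rests on wildtype 1 alone. Without the slide term the Ndufa1 fold change in shSLY was 0.16 ± 0.15 (SE; limma adjusted p = 0.572). The difference between Ndufa1 and the other X-linked genes was not tested.

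The variation seen most clearly in these genes lay among the wildtype arrays, between slides. A contrast of wildtype 3 and 4 (slide 3) with wildtype 1 and 2 (slides 1 and 2), added after seeing the data, called 27 of the 79 genes (34.2%, against 24.6% of all genes), of which 23 were lower on slide 3, where 13.7% of all genes were lower. The median log2 difference was −0.095, beside −0.026 over all genes. Wildtype 3 and 4 both lay below wildtype 1 and 2 for 38 genes (48.1%, against 35.9% of all genes) and above them for 11 (13.9%, against 28.3%). Whether slide, the animals or the cell fraction differed between these arrays cannot be told apart, and the naming and slide of wildtype 3 and 4 are themselves disputed.

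Ndufb5, an accessory subunit of the complex I membrane arm, differed most. It read 9.93 and 10.16 on wildtype 1 and 2 and 9.22 and 9.37 on wildtype 3 and 4, a log2 difference of −0.75 ± 0.10 (SE; limma adjusted p = 0.000951). The knockdown arrays followed their labelled slides, at 9.50 and 9.05 in shSLX and 9.92 and 9.91 in shSLY. Ndufa4 (−0.58), Ndufa3 (−0.56) and Cox6a1 (−0.52) followed. Also lower on wildtype 3 and 4 were Atp5e (−0.41), which encodes the epsilon subunit of the ATP synthase, Uqcrh (−0.40), the hinge protein of complex III, and Cox6b2 (−0.35, adjusted p = 0.0203). The 4 genes that were higher there were Uqcrfs1 (0.49), Ndufa10 (0.39), Ndufv2 (0.34) and Uqcrc2 (0.31), a core protein of complex III.

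**Figure D4:**
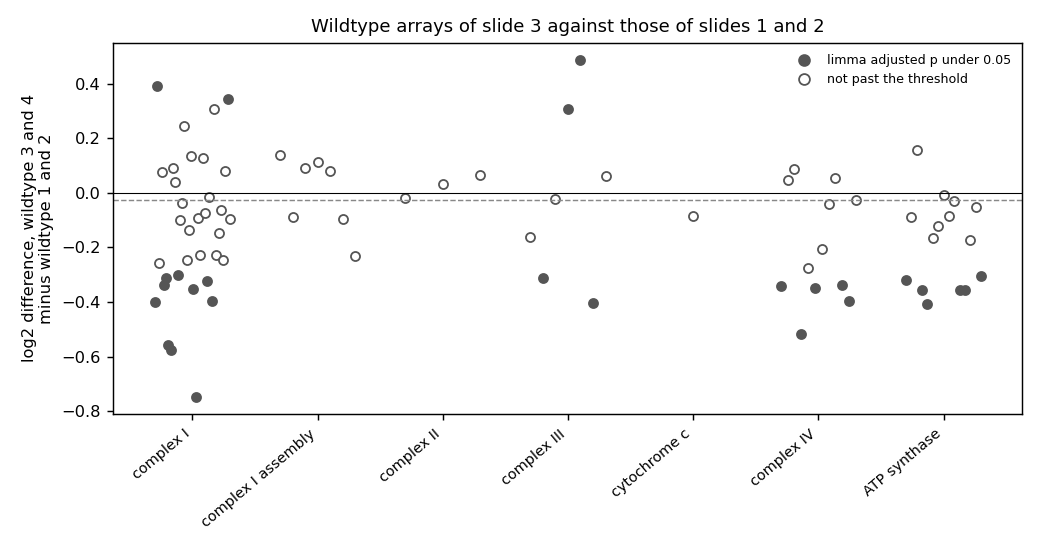
Log2 difference of wildtype 3 and 4 minus wildtype 1 and 2 (y axis) for the 79 tested genes by complex; filled symbols have a limma adjusted p under 0.05 and the dashed line is the median of all genes tested. Of the 27 filled symbols 23 lie below 0, the lowest at −0.75 (Ndufb5).

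Over all 8 arrays the genes varied about as much as the tested genes in general. The range of a gene between its highest and lowest array had a median of 0.47 log2 units, beside 0.50 over all genes tested, and was under 1 for 75 of the 79. The narrowest was that of Sdhb, the iron-sulfur subunit of complex II, at 0.205, and the widest that of Ndufb10 at 1.18. The 4 genes over 1 were Ndufb10, Ndufa4 (1.14), Ndufb5 (1.10) and Cox7b2 (1.0025).

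Other genes that serve the same pathway were followed from a list of assembly factors, carriers, mitochondrial transcription factors and regulators. Of 52 such genes on the array 38 were tested. In shSLX 1 rose and 0 fell, and that 1 of 38 (2.63%) is close to the 2.8% of all genes called. In shSLY and in the difference 0 passed. The gene that rose was Acad9, a complex I assembly factor. It read 6.48 to 6.69 in wildtype and 7.30 and 7.11 in shSLX, a log2 fold change of 0.61 ± 0.12 (SE; limma adjusted p = 0.0339). The call was lost without wildtype 3 (0.51, adjusted p = 0.334), wildtype 4 (0.72, adjusted p = 0.151), shSLX 1 (0.52, adjusted p = 0.0550) and either shSLY array (adjusted p = 0.0797). With the non-normalized headers the direction turned (−0.36, adjusted p = 0.192). Tfam encodes a factor that packages mitochondrial DNA and activates its transcription. Its signal was 12.33 to 12.60 in wildtype and 12.83 and 12.77 in shSLX, a fold change of 0.45 ± 0.10 (adjusted p = 0.0552). Tfam was picked from the list after its values were seen.

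Some marker genes of other cell types were called in shSLX, where 2.8% of all genes tested were called. Of the 6 striated muscle markers tested out of 14, Myl2, a ventricular and slow muscle myosin light chain, rose by 1.98 ± 0.10 (SE; adjusted p = 7.7e-05), and Tmod4, a muscle tropomodulin, by 2.11 ± 0.10 (adjusted p = 6.33e-05). With arrays named as in the non-normalized headers Myl2 turned to −0.78 and Tmod4 was 0.09. The summed level of the list, on the log2 scale, was 9.74 to 9.85 in wildtype, 10.84 to 10.94 in shSLX and 9.78 to 9.79 in shSLY. The defining markers Ckm, Acta1, Actc1, Myh7, Mb, Casq1, Tnni1 and Ttn were detected in 0 columns, as were the muscle isoforms Cox6a2 and Cox8b. Of 7 stromal markers 3 were tested, and Col1a1, Col1a2, Tagln and Des were detected in 0 columns. The 3 tested, Acta2, Dcn and Myh11, rose in shSLX. Acta2 read 6.55 to 7.12 in wildtype and 7.41 and 7.40 in shSLX. Dcn read 7.40 to 8.685 in wildtype and 9.32 and 9.26 in shSLX. Myh11 was detected in only 2 columns and was highest on the shSLX arrays, so that its call may follow from the detection filter. The summed stromal level was 8.50 to 9.30 in wildtype, 9.82 to 9.84 in shSLX and 9.25 to 9.55 in shSLY. Of 5 tested immune markers 3 rose in shSLX, which the fit in effect compares with wildtype 3 and 4. Lyz1 read 7.57 and 7.66 on those arrays and 9.03 and 8.68 in shSLX, but 9.21 on wildtype 1. Lyz2 read 6.68 on both, 7.87 and 7.38 in shSLX and 7.81 on wildtype 1. C1qc read 5.97 and 6.14, then 6.72 and 6.52 in shSLX and 6.88 on wildtype 1. The summed immune level, with no slide term, was 9.18 to 10.33 over all wildtype arrays, 9.84 to 10.15 in shSLX and 10.21 to 10.41 in shSLY. By that sum shSLX lay within the wildtype range and shSLY was higher than shSLX. Of the remaining lists, 1 of 3 tested spermatogonial markers rose in shSLX. This was Sohlh1, at 8.17, 7.97, 7.48 and 7.71 in wildtype 1 to 4 and 8.28 and 8.38 in shSLX. None of the 2 meiotic, 4 Sertoli and 1 Leydig markers tested was called in any comparison. The part of these cell types in the values above was not tested. In whole cell fractions, fewer cells of a type and less RNA per cell cannot be told apart.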

How the data were processed

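The members and the lists of pathway and marker genes were chosen with earlier results of these data known. The authors' deposited intensity values came as a non-normalized table, which also holds the deposited detection p-value of each probe per the file headers, and as a normalized series matrix on a linear scale. The tools, per the submitters' processing notes, were BeadStudio and GenomeStudio; the steps of normalization are not given in the sources used here. The series matrix runs from 46.4 to 42689 on each array. It was background-corrected (normexp, offset 50), quantile-normalized and converted to log2, and 16572 probes passed the detection filter. Group and slide were fitted with limma 3.58.1 (R 4.3.3; lmFit, eBayes, 3 residual and 5.69 prior degrees of freedom), with Benjamini-Hochberg adjustment over all 16572 probes. The fit was tested on simulated data. The small number of arrays limits the precision. Symbols were updated through gene identifiers for 34807 of 45281 probes.

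Genes named with values were those past the threshold, the 3 highest and 3 lowest fold changes in each comparison, Cyct and Cox6b2, the tissue isoform sets, and X-linked members. Others named were chosen after their values were seen. The promoter motifs, the contrast between wildtype arrays and the counts of non-overlapping groups were also added after seeing the data. Depth does not apply to arrays: 13572 to 16113 probes were detected per column.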

Additional observations from a re-analysis of the deposited data

Results flagged for a closer look

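Among the 79 tested genes, the 4 wildtype arrays were searched for an array far from the other 3 (a gap to the nearest array above Dixon's 95% critical share of the whole range). Chance alone flags about 1 in 20 such groups, and 2 genes met the criterion, both through wildtype 1. Atp5g2, a c subunit gene of the ATP synthase, read 7.27 on wildtype 1 against 6.92 to 6.97 on the others, and Ndufs6, a zinc-binding subunit of complex I, read 12.74 against 12.43 to 12.46. Wildtype 1 is the only wildtype array on the slide of the shSLY arrays, where Atp5g2 read 7.06 and 7.42 and Ndufs6 12.58 and 12.67.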

How the results depend on the processing

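The 19 alternatives left 0 of the 79 genes called in all 3 comparisons with offset 16, with the deposited values only converted to log2, with probes detected in all 8 columns, with no filter and with the mean of a gene's probes; each slide alone also gave 0 for shSLX and shSLY and has no value for the difference. In shSLX the genes called were 6 under the non-normalized table's headers, where names are exchanged by construction, and 0 to 3 leaving out 1 array (a lone remaining array is assumed to vary like the other groups). In shSLY they were 2 without the slide term and 0 leaving out any 1 array. In the difference they were 7 without the slide term, 1 with slide as a random block and 0 to 6 leaving out 1 array, 6 of them without wildtype 1, where no slide term can be fitted. The median difference was −0.0035 without the slide term and −0.0035 to 0.194 leaving out 1 array (0.0215 without shSLX 1); the cause was not tested. Over all probes, the 400 calls in shSLX became 2683 under the non-normalized headers, 266 with probes detected in all 8 columns, 250 with its own slide or without either shSLY array, 51 and 43 without wildtype 3 and 4, and 613 and 2495 without shSLX 1 and 2. The 118 calls in shSLY became 635 without the slide term, 469 with the random block, 17 with offset 16, 50 under the non-normalized headers, 558 with its own slide, 667 without wildtype 1, 5 without wildtype 3 or 4, 516 without either shSLX array, and 18 and 12 without shSLY 1 and 2. The 298 calls in the difference became 2445 without the slide term, 1043 with the random block, 171 with offset 16, 21 under the non-normalized headers, 14 and 13 without wildtype 3 and 4, 793 and 1695 without shSLX 1 and 2, and 44 and 32 without shSLY 1 and 2.

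Replicate numbers do not pair the samples: deviations of same-numbered arrays correlated at −0.063 (shSLX and shSLY), 0.05 (shSLX and wildtype) and 0.14 (shSLY and wildtype). With a replicate block in place of slide, 7 genes were called in shSLX (median −0.066), 0 in shSLY and 13 in the difference (median −0.0035), while calls over all probes rose to 2103, 334 and 4383. Cox6a1 turned to −0.46 in shSLX under that block (adjusted p = 0.0295). Of 1266 values of named genes under alternatives, 1252 stayed on their side of the threshold, 151 of them with a changed sign and no call, 13 newly passed and 1 turned. The number of arrays limits how small a difference could be seen.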
